A study of Saccharomyces cerevisiae with 7 samples.

Results

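The mRNA of 8 budding yeast genes was followed through a meiotic time course: MUS81 (YDR386W), MMS4 (YBR098W), YEN1 (YER041W), SLX1 (YBR228W), SLX4 (YLR135W), SGS1 (YMR190C), TOP3 (YLR234W) and RMI1 (YPL024W). They were taken by name from a table of 6141 open reading frames, and all 8 have a row in it. The cells lacked both Clb5 and Clb6, S-phase cyclins of the kinase Cdc28, and this double deletion was shared by every sample and by the 0 h baseline. A single library was made at each of 7 times (1, 2, 3, 4, 5, 6 and 8 h), and no wild-type course was analysed here. The last library is titled 8 h but its source name says 6 h, so its time is in doubt and it is called the last library. Each value compares a gene's mRNA with its own mRNA at 0 h, as a log2 ratio, so 1 unit is a 2-fold difference and the value says nothing of the gene's absolute level. Of the 8 genes, 7 had a value in all libraries, and MUS81 had 6, with none in the last library.

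During meiotic recombination, broken chromosomes pair with their homologs and form joint molecules, including Holliday junctions, which must be taken apart before the chromosomes can separate. The helicase Sgs1 works with the topoisomerase Top3 and its cofactor Rmi1 to unwind and dissolve such structures, and in meiosis this complex also channels intermediates towards their regular fates. Mus81-Mms4, Yen1 and Slx1-Slx4 are structure-selective nucleases that cut the joint molecules that remain. In yeast, Mus81-Mms4 is activated by the polo kinase Cdc5, and Yen1 is kept inactive by Cdc28 phosphorylation until the phosphatase Cdc14 reverses it, so much of the known control of these enzymes acts on the protein.

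Between 5625 and 5810 open reading frames had a value in each library, and 5349 had one in all 7. With 1 array at each time, the number of arrays limits the precision, and no spot intensities were used here. The deleted genes gave no check of level, since values relative to the mutant's own 0 h sample carry none. Their rows were not flat, however: CLB5 lay between -0.51 (4 h) and 1.40 (1 h), CLB6 between -0.53 (2 h) and 1.27 (last library). Each of these spans was wider than the range of every one of the 8 genes except SGS1. SGS1 ranged over 1.95 log2 units, and SLX4 had the next widest range, 1.34. Why rows of deleted genes varied was not tested, nor how much of a member's range has the same source. Markers of early meiosis and middle sporulation were present. The median of 7 early meiotic genes (IME1, IME2, SPO11, REC8, HOP1, DMC1 and ZIP1) was 3.48 at 1 h, rather higher at 4 h with 5.14, and 2.35 in the last library. That of 7 middle sporulation genes went from 0.18 at 1 h to 6.42. Of 3 late spore wall genes, DIT1 lay between 0.05 and 0.50 up to 6 h and at 3.01 in the last library. SPS100 was below its 0 h level in every library, between -2.87 and -0.08, and DIT2 had no value. Of 7 genes typical of haploid cells 4 were tested over time, and 1 rose (18% of all genes), the a-factor gene MFA1. It did not pass without the last library (limma adjusted p = 0.108). The median of those 4 lay between -0.10 and 0.44. The others lacked a value in 1 or more libraries and were not tested. Where measured, STE3 went from 0.61 at 1 h to 1.92 at 6 h, STE2 lay between 0.44 and 0.89, and MF(ALPHA)2 between -0.88 and 0.29. In a bulk culture, fewer cells that make an mRNA and less mRNA per cell cannot be told apart.

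SGS1, MUS81 and SLX4 were above their 0 h level through the middle of the course, YEN1 was below it throughout, and MMS4, SLX1 and TOP3 stayed within 2-fold of it. RMI1 stood close to 2-fold above 0 h from 1 h to 6 h. SGS1 reached 5.43-fold and MUS81 3.78-fold of the 0 h level, while YEN1 stood as low as 4.53-fold below it. The median of the 8 genes was 0.41, 0.64, 0.65, 0.94, 0.64 and 0.50 from 1 to 6 h in order. MUS81 is missing from the last library, and over the other 7 genes the median was 0.37, 0.41, 0.48, 0.79, 0.25 and 0.15 from 1 to 6 h in order and 0.35 in the last library, while the median of all genes in the same 7 libraries lay between -0.01 and 0.09. At 4 h, 4 of the 8 genes exceeded their 0 h level by 2-fold or more (17.6% of all genes with a value) and 1 was at least 2-fold lower (15.7%). The counts at 3, 5 and 6 h were 2, 4 and 3 higher (13.8%, 18.8% and 19.6%), with YEN1 lower each time (13%, 18.2% and 19.3%), and at 2 h 2 were higher (12.9%) and none lower (12.3%). At 1 h none was 2-fold higher (12%) and 1 was lower (12.1%), and in the last library 1 of 7 was higher (22.7%) and 1 lower (20.5%). These counts come from single libraries and have no replicate check.

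**Figure D1:**
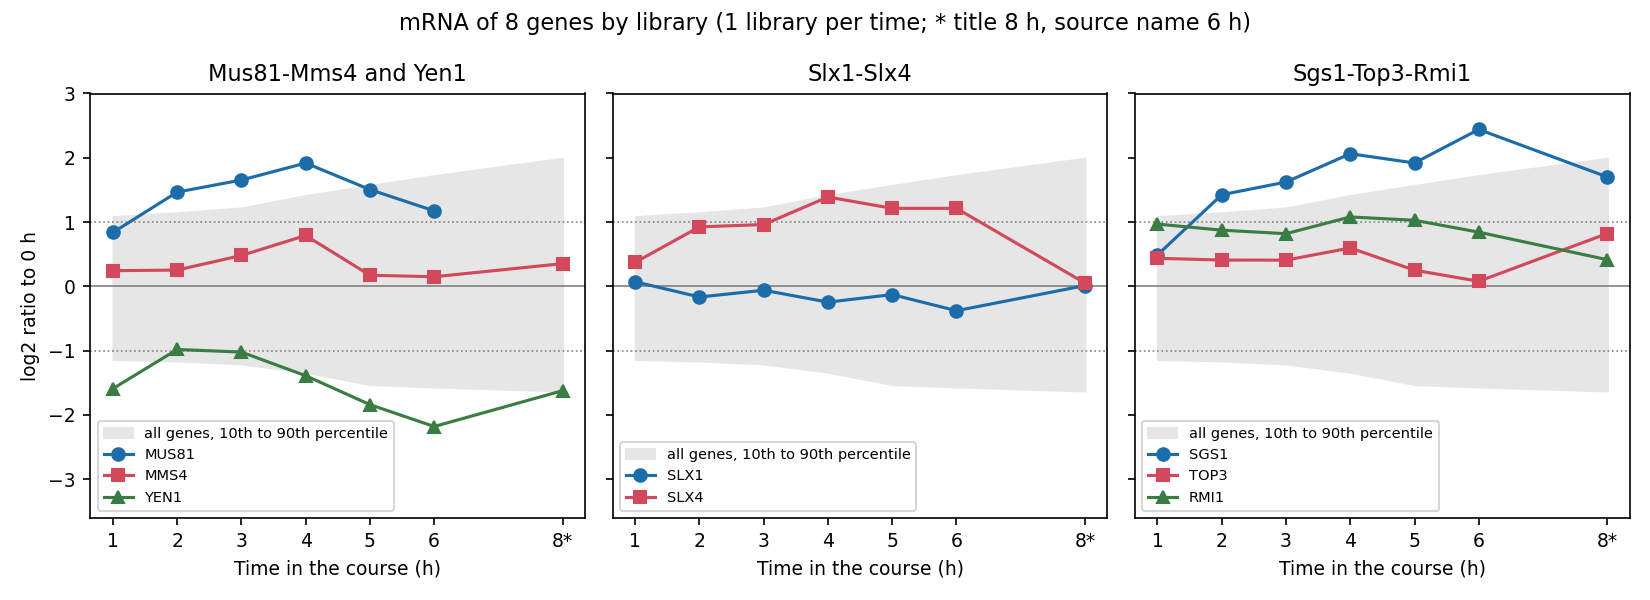
The log2 ratio to 0 h (vertical axis) of each gene is plotted against time in hours, 1 point per library, in a panel for each group of partners. The grey band spans the 10th to 90th percentile of all genes in each library and the dotted lines mark 2-fold; SGS1 and MUS81 lie above the band at 2, 3 and 4 h, YEN1 lies below it at 1, 4, 5 and 6 h, and SLX1 stays close to 0.

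The partners Mus81 and Mms4 had mRNAs that stood at different distances from 0 h. MUS81, which codes for the catalytic subunit, stood at 0.84, 1.47, 1.65, 1.92, 1.51 and 1.17 from 1 to 6 h in order. It was thus highest at 4 h and more than 2-fold above 0 h in 5 of its 6 libraries. Among all genes it was at percentile 94.3 at 2 h, 94.5 at 3 h and 94.5 at 4 h, and at percentile 83.5 at 6 h. MMS4, which codes for the non-catalytic partner that carries the regulatory phosphorylation sites, stood at 0.24, 0.25, 0.48, 0.79, 0.17 and 0.15 from 1 to 6 h in order, and 0.35 in the last library. It too was highest at 4 h, but at no time 2-fold above 0 h. Its step down from 4 h to 5 h was -0.62, at percentile 6.93 of the same step over all genes, and that of MUS81 was -0.41. These steps compare neighbouring arrays and do not depend on the 0 h array.

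YEN1, the Holliday junction resolvase held back until late in the divisions, was the only one of the 8 genes that was at least 2-fold lower than at 0 h in any library. It stood at -1.59, -0.98, -1.02, -1.39, -1.84 and -2.18 from 1 to 6 h in order, and -1.62 in the last library. It was below 0 h in all 7 libraries and at least 2-fold below in 6, its value at 2 h falling just short. Over all genes with 7 values, 31.8% were at least 2-fold lower in 1 or more libraries. YEN1 ranked at percentile 4.80 at 6 h and 12.7 at 2 h. Most of its distance from 0 h was in place at the first time point, and its values over the course ranged over 1.20 log2 units, close to the median range of all genes, 1.19. With the 1 h library as baseline in place of 0 h, no library had YEN1 2-fold lower.

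The Slx1-Slx4 nuclease showed a flat catalytic subunit and a scaffold whose mRNA changed over time. SLX1, which codes for the catalytic subunit, stood at 0.07, -0.17, -0.06, -0.25, -0.13 and -0.38 from 1 to 6 h in order, and 0.01 in the last library. Its range of 0.45 log2 units was smaller than that of all but 4.32% of genes. SLX4, which codes for the scaffold that activates Slx1 and binds other repair proteins, stood at 0.37, 0.93, 0.96, 1.39, 1.21 and 1.21 from 1 to 6 h in order, and 0.05 in the last library. It was 2-fold above 0 h at 4, 5 and 6 h only, and near its 0 h level in the last library. The step of SLX4 from 6 h to the last library was -1.16, at percentile 3.90 of all genes.

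In the Sgs1-Top3-Rmi1 complex, SGS1 stood further above 0 h than both partners from 2 h on, but not at 1 h, where RMI1 was higher. Such distances also depend on the 0 h value of each gene. SGS1, the RecQ helicase related to the human Bloom syndrome helicase, stood at 0.49, 1.43, 1.62, 2.06, 1.92 and 2.44 from 1 to 6 h in order, and 1.70 in the last library. It was more than 2-fold above 0 h in every library but that of 1 h. Its step from 1 h to 2 h was 0.94, at percentile 95.9 of all genes, and its range of 1.95 exceeded that of 80.1% of genes. TOP3, the type IA topoisomerase of the complex, stood at 0.44, 0.41, 0.41, 0.60, 0.25 and 0.08 from 1 to 6 h in order, and 0.82 in the last library. It was above 0 h throughout without reaching 2-fold, and was highest in the library where SLX4 and RMI1 were lowest. RMI1, the cofactor that stimulates dissolution, stood at 0.97, 0.87, 0.82, 1.08, 1.03 and 0.84 from 1 to 6 h in order, and 0.42 in the last library. Its first 6 values lay within a narrow span on either side of 2-fold, and the last was the lowest.

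Change over time was tested with limma on all genes with 7 values, as a straight line in hours and as a natural spline (2 degrees of freedom), which also finds a rise followed by a decline. The words "rose" and "fell" are used for genes whose line passed a Benjamini-Hochberg adjusted p of 0.05 over all genes, and "changed" for genes whose spline did. SLX4 and SGS1 changed (limma adjusted p = 0.00324 and 0.00243). None of the other 5 tested members passed the spline, so that 2 of 7 changed, or 28.6%, where 61% of all genes did. By the line none of the 7 rose (18% of all genes) and none fell (15.1%) by limma, while 1, SGS1, had an unadjusted p under 0.05. The line of SGS1 had a limma adjusted p of 0.0957, its slope and SE being 0.17 ± 0.07 log2 units per h. The slope of YEN1 was -0.10 ± 0.06 per h (limma adjusted p = 0.240) and that of RMI1 -0.06 ± 0.04 (limma adjusted p = 0.321). MMS4, SLX1, SLX4 and TOP3 had slopes between -0.03 and 0.02 per h. These p-values rest on the scatter of consecutive samples from 1 course around the curve, with 5 residual degrees of freedom for the line. To these limma adds a prior spread shared by all genes, on which the p-values also depend. They do not measure the spread between cultures.

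The last library decided several of these calls. Without it, SGS1 was the member that rose, by 0.33 ± 0.06 per h (limma adjusted p = 0.00655), beside 13.2% of all genes. It also rose when the time of that library was set to 6 h (0.26 ± 0.07, limma adjusted p = 0.0301), as 14.1% of all genes did. Without the 1 h library the slope of SGS1 was 0.07 ± 0.06 per h (limma adjusted p = 0.402). The slope of SLX4 turned from -0.03 ± 0.08 to 0.16 ± 0.06 per h without the library and did not pass (limma adjusted p = 0.0745). YEN1 changed by the spline when either that library or the 1 h library was left out (limma adjusted p = 0.00933 and 0.0226), against 0.323 with all 7; without the 1 h library 55.6% of all genes changed. MUS81 could be tested only where 7 values were not required. It changed by the spline over its 6 libraries, once without the last library (limma adjusted p = 0.00995) and once among genes with 5 or more values (limma adjusted p = 0.0158, where 59.5% of genes changed), while its slope of 0.06 ± 0.08 per h did not pass (limma adjusted p = 0.619). Without the last library, 4 of 8 members changed, namely MUS81, YEN1, SLX4 and SGS1, beside 50.3% of all genes. The call for SLX4 was lost when the time of the last library was set to 6 h (limma adjusted p = 0.176; 44.3% of genes changed), and the call for SGS1 was lost without the 1 h library (limma adjusted p = 0.0627). RMI1 fell after quantile normalization (-0.11 per h, limma adjusted p = 0.0478; 13.8% of genes fell). It also changed by the spline after that step and with the libraries brought to equal spread (limma adjusted p = 0.0350 and 0.0394), as 49.9% and 52.3% of all genes did. With equal spread the slope of YEN1 turned to 0.03 per h and that of SGS1 went down to 0.08, and after quantile normalization that of SGS1 was 0.04, none of which passed.

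**Figure D2:**
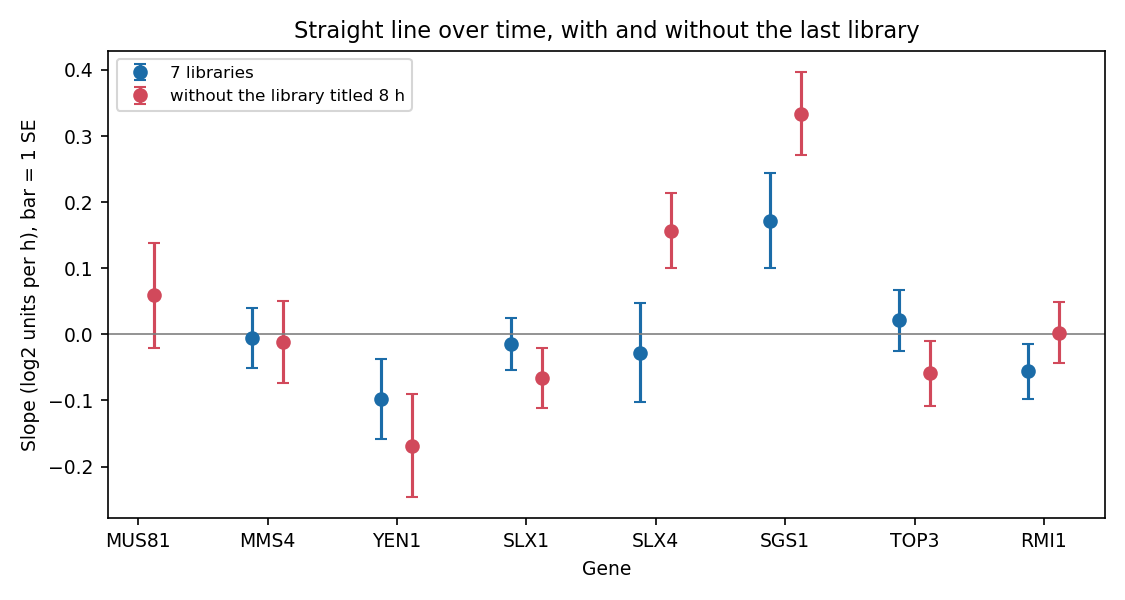
The slope of a straight line over time, in log2 units per h, is plotted for each gene with all 7 libraries (blue) and without the last library, titled 8 h (red), with bars of 1 SE. MUS81 has no blue point because it lacks a value in that library; SGS1 goes from 0.17 to 0.33 and SLX4 from -0.03 to 0.16.

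Whether partners of a complex kept the same distance from each other over time was tested on the difference of their log2 ratios. There were 5 pairs, tested with a two-sided exact permutation test over all orders of the libraries and adjusted over the 5 pairs. This test treats the libraries as exchangeable, although they are consecutive samples from 1 course. Its p-values thus do not measure the spread between cultures either. RMI1 minus SGS1 was 0.48, -0.55, -0.80, -0.98, -0.89 and -1.60 from 1 to 6 h in order, and -1.29 in the last library. RMI1 was thus further above 0 h than SGS1 at 1 h only. The slope of this difference was -0.23 per h (exact permutation p = 0.0175, adjusted p = 0.0873). It passed without the last library (-0.33, exact permutation adjusted p = 0.0208) and with its time set to 6 h (-0.31, exact permutation adjusted p = 0.00595). It was -0.14 without the 1 h library and -0.16 after quantile normalization, and did not pass (exact permutation adjusted p = 0.264 and 0.459). TOP3 minus SGS1 was below 0 in all 7 libraries, with its extremes of -0.05 at 1 h and -2.36 at 6 h. It stood at -0.88 in the last library, and its slope was -0.15 per h (exact permutation adjusted p = 0.389). Without the last library its slope was -0.39 per h, and it passed (exact permutation adjusted p = 0.0139). Leaving out the 1 h library gave -0.04 and leaving out that of 6 h gave -0.09, neither of which passed (exact permutation adjusted p = 0.767 and 0.535). With equal spread it was -0.09 and after quantile normalization -0.06, again without passing (exact permutation adjusted p = 0.765 and 0.653). For both partners of SGS1 the difference was lower at 6 h than at 1 h, and with all 7 libraries at their titled times neither slope passed.

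The other pairs showed no slope that passed. MMS4 minus MUS81 was below 0 in all 6 libraries where both were measured, between -1.33 (5 h) and -0.59 (1 h), and its slope was -0.07 per h (exact permutation adjusted p = 0.389). SLX4 minus SLX1 was above 0 in all 7 libraries, reaching 1.64 at 4 h and 1.59 at 6 h before the 0.04 of the last library. Its slope was -0.01 per h (exact permutation adjusted p = 0.918), and 0.22 without the last library (exact permutation adjusted p = 0.0509). RMI1 minus TOP3 lay between 0.41 and 0.78 up to 6 h and at -0.41 in the last library, with a slope of -0.08 per h (exact permutation adjusted p = 0.389). A constant difference between 2 genes also depends on their 0 h values, so only its course over time was tested.

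**Figure D3:**
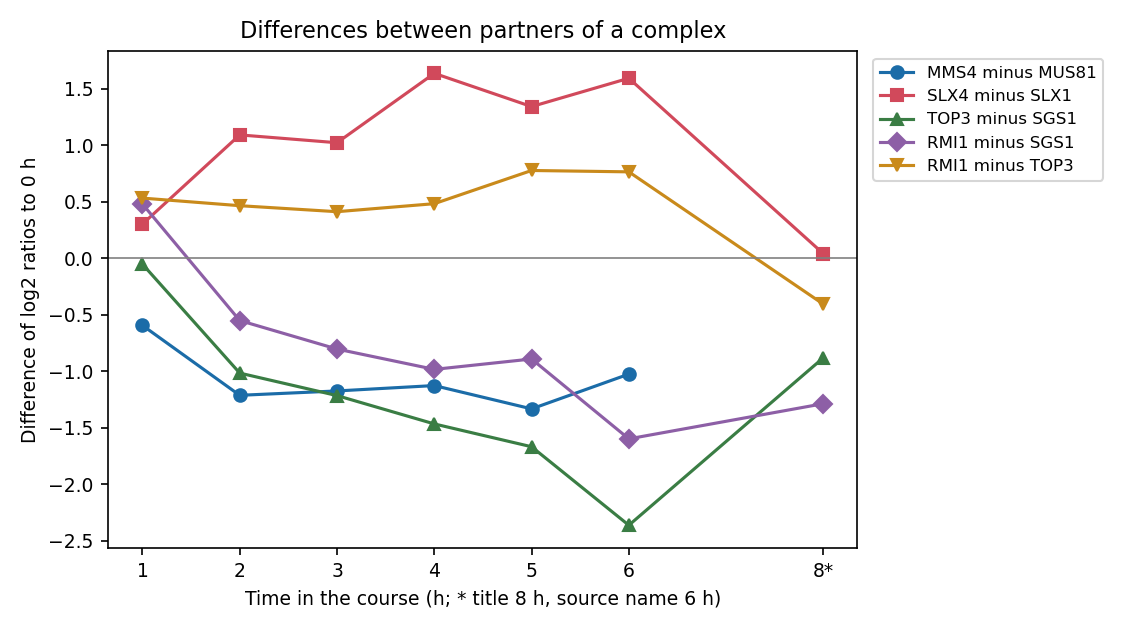
The difference between the log2 ratios to 0 h of 2 partners (vertical axis) is plotted against time in hours for 5 pairs, 1 point per library. The pairs with SGS1 are lower at 6 h than at 1 h, SLX4 minus SLX1 goes from 0.30 at 1 h to 1.64 at 4 h and back to 0.04, and MMS4 minus MUS81 lies near -1 from 2 h on.

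Of the 7 genes with a value in all libraries, 3 were highest at 4 h (MMS4, SLX4 and RMI1), where 13.2% of all such genes were. Over the first 6 libraries, 5 of the 8 were highest at 4 h, MUS81 and TOP3 included, beside 14.7% of all genes. YEN1 was highest at 2 h, SLX1 at 1 h and SGS1 at 6 h, where 11.5%, 23.6% and 8.94% of all genes with 7 values were. Across libraries, the closest correlations between members were those of MUS81 with SLX4 (Pearson r = 0.76 over 6 libraries), SLX4 with RMI1 (0.74 over 7) and MUS81 with MMS4 (0.73 over 6). SLX1 ran opposite to SGS1 (-0.82 over 7) and SLX4 (-0.79 over 7), though over its narrow range. These points share a course, the 0 h array and the reference pool, so the correlations are descriptions only. By root mean square difference, the nearest members were MMS4 and TOP3 at 0.22 log2 units.

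The genes whose courses lay nearest to each member, out of all genes measured in the same libraries, were found by root mean square difference. MUS81 had GAB1 at 0.08 log2 units and the cohesin subunit IRR1 at 0.09 (Pearson r = 0.97 and 0.99 over 6 libraries). SLX4 had VPS4 at 0.17 and MRX4 at 0.17 (r = 0.96 and 0.94 over 7 libraries). SGS1 had fewer close neighbours in this sense, CSE1 at 0.24 and SNF7 at 0.26 being the nearest, and so had YEN1, with CAB2 at 0.24 and RTC3 at 0.27. No gene lay within 0.2 log2 units of SGS1 or YEN1. For the others 76 did so for SLX1, 29 for MMS4, 28 for RMI1, 13 for TOP3 and 3 for SLX4. The 20 for MUS81 were found over 6 libraries only. The measure takes in a gene's distance from 0 h as well as the shape of its course, so these counts do not rank how unusual a shape is. RBH2 and BCK1 were nearest to MMS4, CWC15 and DNF2 to SLX1, PFA5 and GPN2 to TOP3, and IDH2 and POP2 to RMI1, all between 0.10 and 0.14.

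No member overlaps another gene of the RefSeq gene table, and none of the 16 genes next to a member followed its course with a Pearson r of 0.9 or more, the values lying between -0.92 and 0.75. The array also has rows numbered next to MMS4 and TOP3 that the gene table does not hold, so their positions are unknown here; they were looked up after the values were seen. YBR099C was above MMS4 in all 7 libraries, by 0.71 log2 units on average, at 1.66 at 3 h and 1.28 at 4 h (r = 0.51 with MMS4 over 7 libraries). YLR235C lay between -0.08 and 0.74 and had an r of -0.33 with TOP3. Whether these rows read any mRNA of MMS4 or TOP3 was not tested.

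Among the other genes of the pathway, the 3 steepest rises per h with all 7 libraries were those of regulators of the nucleases. The third, CDC14 (0.60 ± 0.05 per h), lay close to EXO1 of the class I crossover list (0.58 ± 0.07). Without the last library EXO1 was the steeper, with 0.73 against 0.67 per h. NDT80 and CDC5 are also among the 7 middle sporulation genes above, all of which rose (18% of all genes). Of 9 regulators 3 rose (18% of all genes), none fell (15.1%) and 7 changed (61%), and without the last library 5 rose (13.2%). NDT80, the transcription factor that starts the middle phase, rose by 1.05 ± 0.16 per h, its values running from -0.56 at 1 h to 6.18 at 6 h (limma adjusted p = 0.00197). CDC5, the activator of Mus81-Mms4, rose from 1.57 at 1 h to 6.42 in the last library (0.87 ± 0.12 per h, limma adjusted p = 0.000994). CDC14, the phosphatase that activates Yen1, was the third that rose and went from 0.24 at 1 h to 4.04, while YEN1 itself stayed below 0 h. CDC28, whose product restrains Yen1, changed: it stood at 0.20 at 1 h, was highest at 5 h with 2.65, and ended at 1.48. Among the proteins that Slx4 is known to bind, DPB11 changed, with 0.43 at 1 h and 1.80 at 6 h, and RTT107 lay between 0.20 and 1.28 without passing the spline (limma adjusted p = 0.0742).

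Class I crossover genes act on the joint molecules that become regulated crossovers. Over the 7 of 11 with a value in every library, their median went from 1.15 (1 h) to 3.03 (4 h), and the last library had 2.01. Of these 7, 1 rose (18% of all genes), none fell (15.1%) and 6 changed (61%), and without the last library 2 of 10 rose (13.2%). EXO1, a nuclease that also serves crossover formation, rose from 1.39 at 1 h to 4.85 (0.58 ± 0.07 per h, limma adjusted p = 0.000625). MLH3, which codes for an endonuclease of this pathway, changed, with 1.06 at 1 h, a highest value of 2.49 at 4 h and a last value of 0.88. Of 13 strand exchange genes tested, none rose (18% of all genes), 1 fell (15.1%) and 8 changed (61%). The one that fell was MND1 (-0.23 ± 0.08 per h, limma adjusted p = 0.0415). MND1 did not pass without the 2, 3 or 6 h library or the last one (limma adjusted p = 0.0948, 0.0727, 0.0929 and 0.398). Without the 1 h library 7 strand exchange genes fell, beside 18.1% of all genes.

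Of 11 other structure-selective nucleases and their cofactors tested, 4 rose (18% of all genes), none fell (15.1%) and 7 changed (61%), but 2 rose without the 1 h library and 2 without the 2 h library (20.8% and 13.2% of all genes). EXO1 is in this list as well as in the class I crossover list, and is 1 of the 4 that rose. RAD10, a subunit of the Rad1-Rad10 nuclease, rose from 0.16 at 1 h to 1.98 at 6 h (0.22 ± 0.06 per h, limma adjusted p = 0.0211), while its partner RAD1 lay between -0.11 and 0.35. The line of RAD10 did not pass without the 1 h or the 2 h library (limma adjusted p = 0.0615 and 0.0608), and its slope was 0.37 per h without the last library. Of 5 other helicases and topoisomerases tested none rose (18% of all genes), none fell (15.1%) and 3 changed (61%), while 1 rose without the last library (13.2%) and 1 fell without the 1 h library (18.1%). In that list SRS2, a helicase that restrains recombination, lay between 0.29 and 1.03. Of 10 genes of the Smc5/6 complex and the Slx5-Slx8 ubiquitin ligase tested, 2 rose (18% of all genes), none fell (15.1%) and 3 changed (61%). KRE29, a subunit of the Smc5/6 complex, rose from 0.05 at 1 h to 2.63 (0.41 ± 0.06 per h, limma adjusted p = 0.00118), and SLX8 rose from -0.37 to 1.72 (0.30 ± 0.05 per h, limma adjusted p = 0.00164), while SLX5, its partner, lay between -0.24 and 0.53. The median slope was -0.02 per h over the 7 members tested, 0.13 over the regulators, 0.06 over the class I crossover genes and -0.01 over all genes; no difference between these lists was tested. Without the 1 h library 1 gene fell in each of the class I crossover, other nuclease and Smc5/6 lists, where none did with all 7 libraries.

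**Figure D4:**
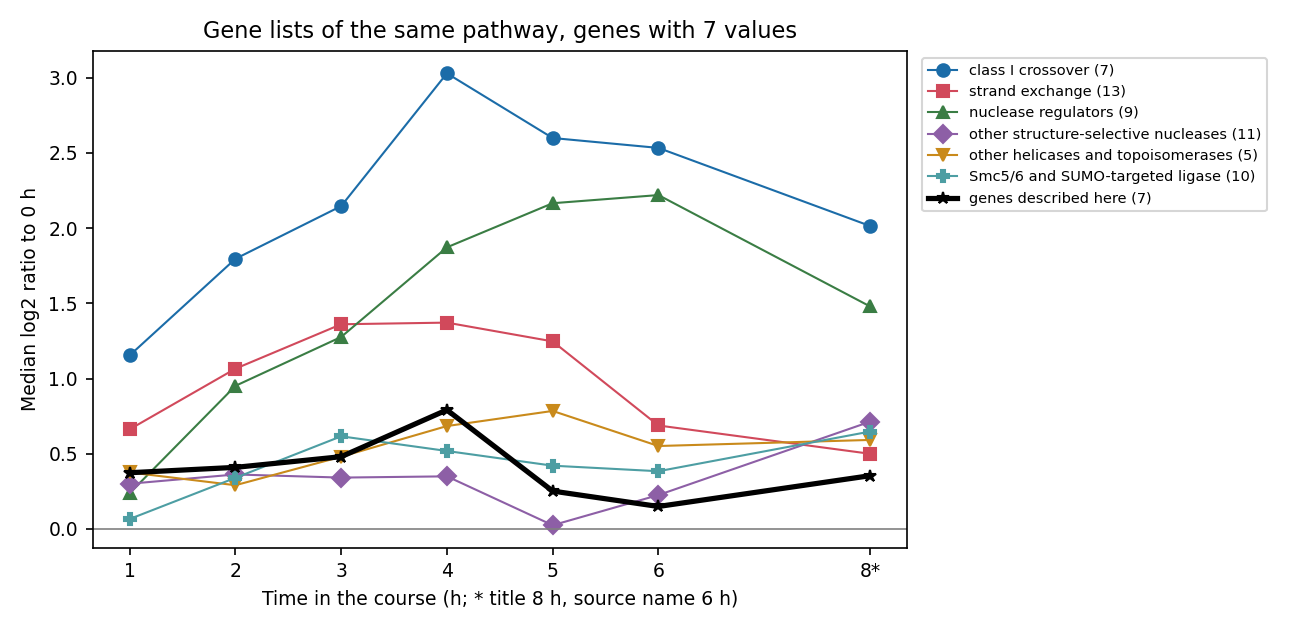
The median log2 ratio to 0 h of each gene list (vertical axis) is plotted against time in hours over its genes with a value in all 7 libraries, their number in parentheses; the thick black line holds 7 of the genes described here, without MUS81. The black line is highest at 4 h, with 0.79, and lies below the class I crossover genes in every library.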

How the data were processed

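Polyadenylated RNA from a meiotic culture of the Clb5 and Clb6 double mutant was labelled with Cy5 and hybridised with a Cy3-labelled pool from the course, per the labels' protocols. The deposited values are log2 ratios, which the authors, per the labels' design text, formed from the sample-to-pool ratio relative to its value at 0 h. How spots were scanned, corrected, filtered and normalized is not given in the sources used here. Groups follow the times in the titles. Of 6141 rows, 5655 were found by locus tag among RefSeq genes (assembly R64), used for names and neighbours only. The files name no build, so no coordinates are given, and no sequence was used here.

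Lines and splines were fitted with limma 3.58.1 (lmFit, eBayes) in R 4.3.3 on 5349 genes, with adjustment over all of them. Exact permutation tests used all 5040 orders of 7 libraries, or 720 of 6. The fits were tested on simulated data of 5349 genes with independent normal scatter. Of these, 67, 67 and 66 were given slopes of 0.1, 0.3 and 0.6 per h in size. The line found 4.5%, 70.1% and 95.5% of them in order (the spline 0%, 50.7% and 90.9%), so slopes near 0.1 were mostly missed. It made 8 false calls among 121 calls. In the data 965 genes rose and 806 fell, and the samples are consecutive ones of 1 course, so the rates there can differ. Named are all members, the 2 nearest courses, neighbours with r of 0.9 or more, and the 2 largest slopes each way in each list. CLB5, CLB6, CDC14, CDC28, DPB11, RTT107, MLH3, RAD1, SRS2, SLX5, SPS100, STE2, STE3, MF(ALPHA)2, YBR099C and YLR235C were picked with their values in view. The members and lists were chosen with earlier results of these data known. SAE3 has no row under its name, and SPO22, MRE11, XRS2, RRM3 and DIT2 have no value in any library. The alternatives were centring, equal spread, quantile normalization, leaving out each library, the last library (titled 8 h, source name 6 h) as 6 h, ranked times, late minus early libraries, robust eBayes, genes with 5 or more values, a 1 h baseline and a 1.5-fold limit. Python 3.11.15 with pandas 2.3.3, numpy 2.4.6 and matplotlib 3.10.9 made the tables and figures.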

Additional observations from a re-analysis of the deposited data

How the results depend on the processing

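No paired analysis was possible because each time point has 1 library and the labels carry no replicate numbers. With 1 array per time point and no spot intensities, signal over background behind a ratio is unknown. Of 158 recomputed counts, 141 stayed within 1.5 times their value and 17 did not. Many of the 141 were counts of 0 that stayed at 0, and some counts overlap, so the tally does not measure how firm the results are. The number of members passing the line, 0 in all, was 1 without the last library and 1 with it taken as 6 h (SGS1, which rose), and 1 after quantile normalization (RMI1, which fell by 0.11 per h, limma adjusted p = 0.0478); leaving out single libraries gave 0 to 1 passing and 0 to 1 rising. The number that changed by the spline, 2, was 1 with the last library set to 6 h and 2 to 4 when single libraries were left out. RMI1 changed with equal spread and after quantile normalization (limma adjusted p = 0.0394 and 0.0350, against 0.117). Over all genes, the 965 that rose and 806 that fell became 624 and 440 when the late libraries were compared with the early ones, which uses 6 libraries; without single libraries 710 to 1134 rose and 512 to 982 fell, 512 being without the 2 h library. Members at least 2-fold from 0 h in any library numbered 5, and 3 against the 1 h library, where 0 were lower in place of 1. The share of all genes at least 2-fold away in either direction in any library was not computed, so these counts are not read as high or low. For at least 2-fold lower than 0 h alone it was 31.8% of genes with 7 values, and no share was computed against the 1 h library. The 3 members highest at 4 h became 0 to 5 with single libraries left out. Of the 5 pairs, 0 passed, 1 with the last library set to 6 h and 0 to 2 with single libraries left out.

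Several slopes changed sign between settings, and none passed where its sign was reversed. MMS4 was 0.0051 per h with centred libraries and -0.024 to 0.0081 with single libraries left out. YEN1 was -0.098 with the values as deposited and 0.033 with equal spread. SLX1 was 0.0015 with that setting, 0.0029 after quantile normalization and -0.066 to 0.0085 with single libraries left out. SLX4 was 0.030 with the last library set to 6 h, and -0.12 to 0.16 with single libraries left out; its late minus early difference was 0.073. TOP3 was -0.0058 with equal spread, -0.012 after quantile normalization and -0.0023 with the last library set to 6 h. It was -0.059 to 0.048 with single libraries left out, and its late minus early difference was -0.034. RMI1 was -0.067 to 0.0027 with single libraries left out. Among pairs, MMS4 minus MUS81 was 0.013 with equal spread, 0.036 after quantile normalization and -0.14 to 0.022 with single libraries left out. SLX4 minus SLX1 was 0.066 with the last library set to 6 h and -0.13 to 0.22 with single libraries left out, and RMI1 minus TOP3 -0.11 to 0.062. The cause of these changes was not tested.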
